A study of Homo sapiens with 6 samples.

Results

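Histone and DNA methylation enzymes are the proteins that add methyl groups to histone tails or to cytosine, or take them off. They were taken from the deposited table as protein-coding genes outside the Y chromosome and alternate sequences. Their symbols had to belong to the KDM, KMT2, SETD, SETDB, SUV39H, SUV420H, PRMT, EZH, DNMT, TET or PRDM families, or be 1 of NSD1, EHMT1, EHMT2, DOT1L, ASH1L, SMYD2, SMYD3, WHSC1, WHSC1L1, EED, SUZ12 and JMJD6. This gave 83 of the 64253 genes in the table, chosen by name and not by any measured value. RNA sequencing was done at passages 30 to 32 on H69, a human bile duct epithelial (cholangiocyte) line that has been immortalised. One group of 3 libraries came from cells treated for 16 h with 10 ng/ml of recombinant human TGF-beta, and the other group of 3 libraries came from cells given vehicle. The series asked which transcripts this cytokine changes in a cholangiocyte line. Whether the replicates were separate cultures is not stated in the labels, and the p-values therefore cover only the spread among these libraries, which may be technical.

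Histone methyltransferases carry a methyl group from S-adenosylmethionine to lysine or arginine, and most lysine enzymes do so with a SET domain. The position sets the usual reading: methylated H3K4, H3K36 and H3K79 mark transcribed genes, while methylated H3K9 and H3K27 mark silent ones. Polycomb repressive complex 2 writes H3K27 methylation. Demethylases of the Jumonji type use oxygen, iron and 2-oxoglutarate, and the LSD enzymes use FAD. DNMT enzymes methylate cytosine, and TET enzymes oxidise the methylated base as the first step of its removal. TGF-beta acts on transcription through SMAD proteins, and in the bile duct it is known for its part in fibrosis.

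The libraries held 37205862 to 54160521 counts, and 1 CPM (a count scaled to its library's size, with TMM factors) stood for 35.7 to 56.2 reads. Vehicle replicate 1 stood apart from the other 2 vehicle libraries, and the chi-square over genes, divided by its degrees of freedom, was 23.8 and 26.1 against each of them, where these 2 differed by 2.92. It was also the vehicle library farthest from the others for 40 of the 74 enzymes tested. For a number of enzymes the result without it is therefore given as well. All 4 genes used to check the response rose, among them SMAD7 (73.1 ± 3.09 CPM with TGF-beta and 13.1 ± 2.45 CPM with vehicle, mean ± SD, n = 3 each). Of 8 cholangiocyte markers, KRT7, KRT8, KRT18 and KRT19 were abundant, while CFTR had no count in any library. The summed level of the 8 was 5560 to 6061 CPM with TGF-beta and 3807 to 4068 CPM with vehicle, carried by KRT7 and KRT8, which rose. SOX9 fell to 6.20 ± 0.259 CPM with TGF-beta, against 20.9 ± 4.99 CPM with vehicle, and EPCAM to 9.62 ± 0.184 CPM with TGF-beta, against 13.5 ± 2.10 CPM with vehicle. Of 5 hepatocyte markers all but SERPINA1 were near 0, and their sum was 71.8 to 74.2 CPM with TGF-beta and 59.3 to 62.5 CPM with vehicle. PTPRC and CD3E, 2 of 4 leukocyte markers, and CDH5, 1 of 4 endothelial markers, were near 0 too. The leukocyte sum was 11.3 to 13.0 CPM with TGF-beta and 15.4 to 15.6 CPM with vehicle, and the endothelial sum was 10.0 to 11.5 CPM with TGF-beta and 19.3 to 23.8 CPM with vehicle. The 5 summed fibroblast markers were 266 to 286 CPM with TGF-beta and 167 to 186 CPM with vehicle, mostly PDGFRB and THY1, with DCN under 1 CPM and LUM near 0, while PDGFRA fell to 4.17 ± 0.181 CPM with TGF-beta, against 6.84 ± 0.658 CPM with vehicle. The part of these marker shifts in the results below was not tested. In bulk RNA, fewer cells of a kind and less RNA per cell cannot be told apart.

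TGF-beta moved some of these enzymes strongly and most of them little. The H3K27 demethylase gene KDM6B and the H3K9 and H3K27 demethylase gene KDM7A rose 3.68-fold and 2.93-fold. The de novo DNA methyltransferase gene DNMT3B and JMJD6 rose by 1.62 and 1.54 times. Of the H3K9 methyltransferase genes, SUV39H1, EHMT2, SETDB1 and SETDB2 fell, EHMT1 rose and SUV39H2 was not called. The calls of EHMT2, SETDB2 and EHMT1 were lost in some alternative fits. The Polycomb genes EZH2, SUZ12 and EED, the maintenance methyltransferase gene DNMT1 and all 3 TET genes were not called. Of the 83 enzymes, 74 passed the filter on low counts. With the quasi-likelihood test of edgeR and Benjamini-Hochberg adjustment over all 20992 genes tested, 33 were called at an adjusted p under 0.05, against a background of 40.1% of all genes. These 33 are 44.6% of the 74, close to that background. Of them 15 were higher with TGF-beta (background 19.7%) and 18 were lower (background 20.4%). The counts given below for single classes and lists, many of them small, are to be read beside these same shares where they come from this fit. Alternative fits have other backgrounds. The share of all genes called in either direction was 50.4% without vehicle replicate 1 and 47.5% with library totals alone. It was 29.5% without TGF-beta replicate 2, 31.8% without vehicle replicate 2 and 45.7% on RPKM. A change of at least 1.5 times in either direction was found for 5 higher enzymes (background 8.47%) and 1 lower enzyme (background 7.8%), and the other 27 called enzymes changed less. The CPM values of the 2 groups did not overlap for 42 of the 74 enzymes, where the background was 52.3%. The median log2 fold change was 0.02 over the enzymes and -0.01 over all genes tested, and the median size of change regardless of sign was 0.14 and 0.22. Without vehicle replicate 1, 20 enzymes were called higher and 23 lower, the first 33 all among them. The count of lower enzymes dropped to 11 without TGF-beta replicate 2 and also without vehicle replicate 2. Scaling by library totals alone, without TMM, moved the median of all genes to -0.14 and gave 12 higher and 33 lower enzymes, so directions of small changes here are relative to TMM scaling. Of the 33 called enzymes, 12 overlap another tested gene, and for 7 of these (KMT2E, SUV39H1, SETDB1, DOT1L, PRMT5, PRMT7 and KDM4C) the overlapping gene's CPM was at least 25% of their own. No source used here gives the strand setting of the counting, so reads in these overlaps cannot be told apart.

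**Figure D1:**
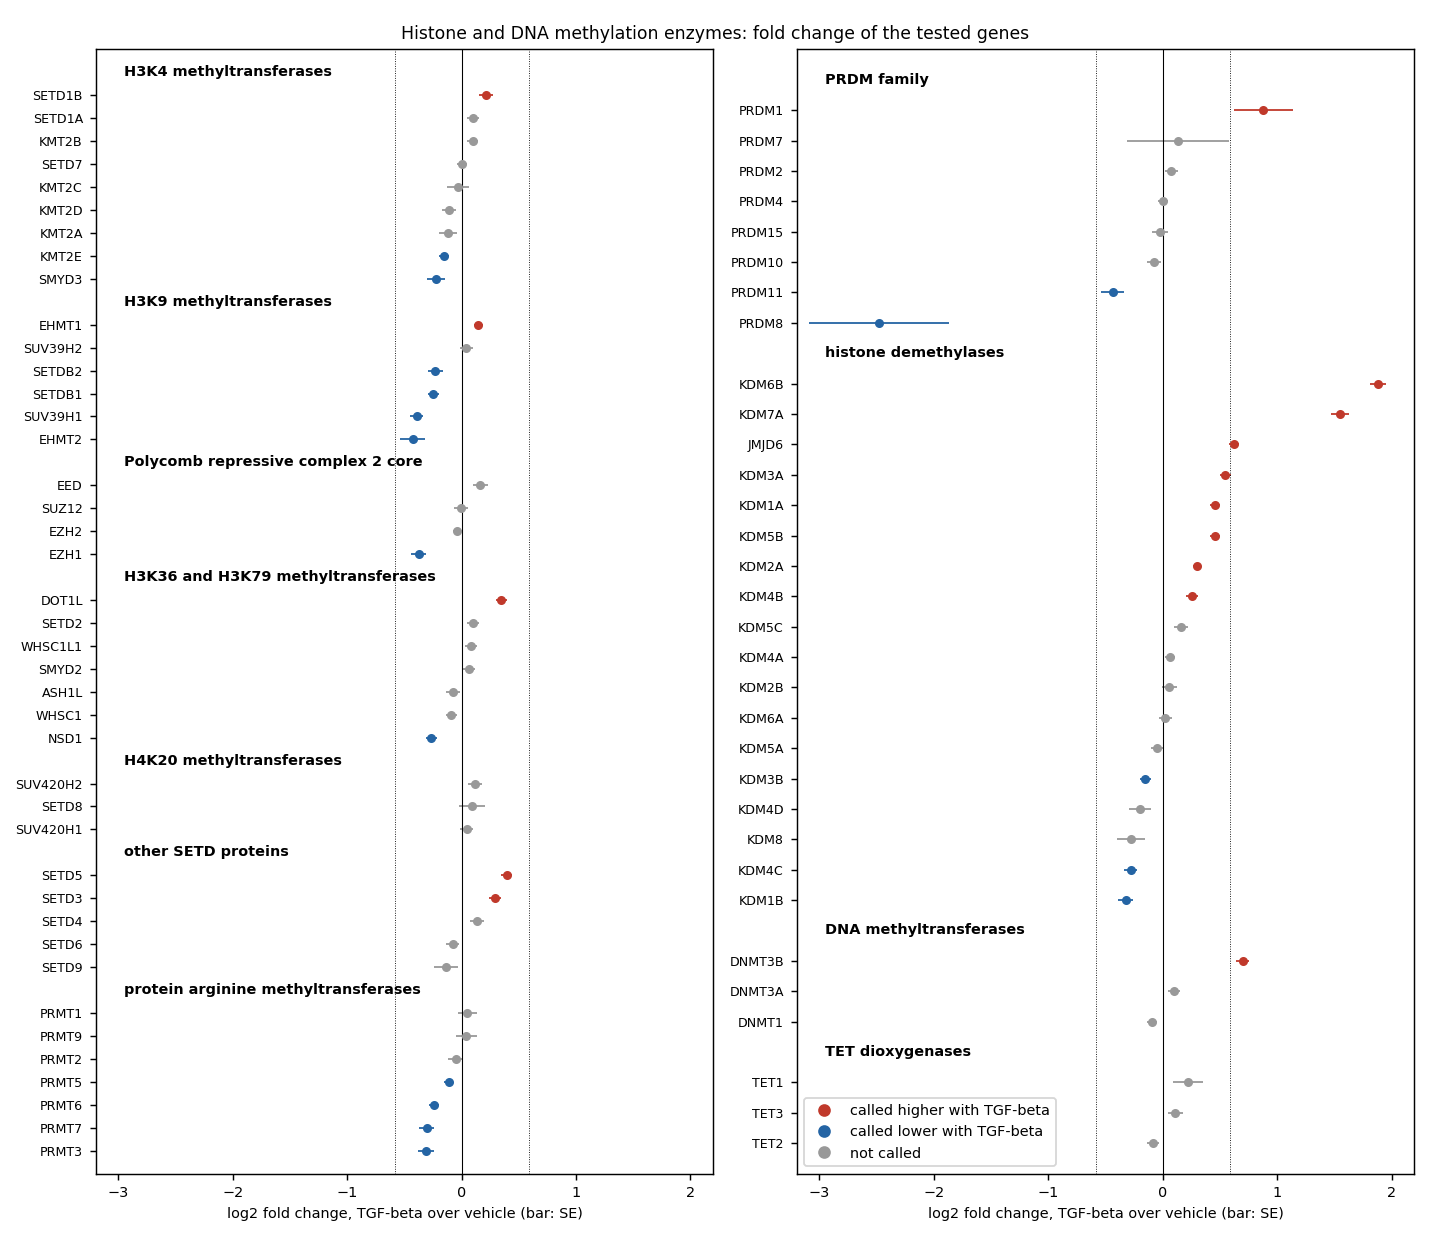
Log2 fold change of TGF-beta over vehicle (x axis, bars give the standard error) for the tested enzymes, all but 1 of the 74 drawn, grouped by class down the page and coloured by call. Dotted lines mark 1.5-fold. KDM6B at 1.88 and PRDM8 at -2.48 lie farthest from 0, and most genes lie between the dotted lines.

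The demethylases were the largest class, with 18 of the 74 tested enzymes, and held 8 of the 15 rises. The 8 were KDM6B, KDM7A, JMJD6, KDM3A, KDM1A, KDM5B, KDM2A and KDM4B, while 3 fell (KDM1B, KDM4C and KDM3B) and 7 were not called. The background over all genes was 19.7% higher and 20.4% lower. The class median was 0.11. With library totals alone 6 were lower. KDM6B (ENSG00000132510, hg38 chr17:7839904-7854796) encodes JMJD3, which removes methyl groups from H3K27 and is known as an inducible gene in inflammatory signalling. It had 63.6, 71.1 and 70.0 CPM in the TGF-beta libraries and 20.5, 17.7 and 17.6 CPM in the vehicle libraries. Each TGF-beta library was more than 3 times each vehicle library. The log2 fold change was 1.88 (SE 0.07, adjusted p = 2.00e-08 by edgeR), a 3.68-fold rise. Its relative KDM6A, or UTX, which acts on the same mark and lies on the X chromosome, had 39.6, 39.7 and 37.2 CPM with TGF-beta and 37.5, 40.1 and 37.0 CPM with vehicle. Those groups overlapped, and KDM6A was not called (log2 fold change 0.02, SE 0.05, adjusted p = 0.746 by edgeR).

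KDM7A (ENSG00000006459, hg38 chr7:140084746-140177035), whose product reads methylated H3K4 and demethylates H3K9 and H3K27, had 22.2, 20.03 and 18.7 CPM with TGF-beta. The vehicle libraries had 6.99, 6.83 and 6.98 CPM. The lowest TGF-beta library lay far above the highest vehicle library, and the log2 fold change was 1.55 (SE 0.08, adjusted p = 1.46e-07 by edgeR). JMJD6 (ENSG00000070495, hg38 chr17:76712832-76726799), an oxygenase known for lysine hydroxylation of splicing proteins and reported as an arginine demethylase, had 67.8, 70.2 and 70.5 CPM with TGF-beta and 47.2, 44.1 and 44.1 CPM with vehicle. Its groups stood apart, with a log2 fold change of 0.62 (SE 0.05, adjusted p = 2.95e-06 by edgeR). With library totals alone JMJD6 moved to 0.50, below 1.5-fold, and was still called.

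KDM1A, or LSD1, the FAD-dependent eraser of lower H3K4 methylation, had 109, 109 and 108 CPM in the TGF-beta libraries and 81.6, 78.5 and 78.0 CPM in the vehicle libraries. The groups were far apart for so abundant a gene, at a log2 fold change of 0.46 (SE 0.04, adjusted p = 1.03e-05 by edgeR). The other demethylases in this paragraph were named after their values were seen. KDM3A, an H3K9 demethylase, rose by 0.55 on the log2 scale (62.5 ± 1.40 CPM with TGF-beta, 42.8 ± 1.73 CPM with vehicle), KDM5B, an H3K4 demethylase, by 0.45, KDM2A, an H3K36 demethylase, by 0.30, and KDM4B, an H3K9 demethylase, by 0.26. KDM1B, the second LSD enzyme, fell to 13.8 ± 0.549 CPM with TGF-beta, against 17.3 ± 0.746 CPM with vehicle. KDM4C fell by 0.28 and KDM3B fell by 0.15 on the log2 scale. KDM4B was not called with library totals alone or on RPKM, and KDM3B lost its call in DESeq2 and with each library left out in turn except vehicle replicate 1.

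The stretches below are RefSeq promoters on GRCh38.p14, from 250 bases before to 50 bases after an annotated start, for the demethylase genes KDM6B and KDM7A, which rose most, and for DNMT3B, the DNA methyltransferase that rose. They were chosen after the values were seen. Capitals mark each CpG, the dinucleotide that DNMT enzymes methylate. The KDM6B stretch is chr17:7833967-7834266 on the plus strand, upstream of the gene start in the deposited table, and is 1 of 2 RefSeq entries for it. The KDM7A stretch is chr7:140176934-140177233 on the minus strand. The DNMT3B stretch is chr20:32779602-32779901 on the plus strand and starts inside the interval the deposited table gives for the gene.
KDM6B promoter: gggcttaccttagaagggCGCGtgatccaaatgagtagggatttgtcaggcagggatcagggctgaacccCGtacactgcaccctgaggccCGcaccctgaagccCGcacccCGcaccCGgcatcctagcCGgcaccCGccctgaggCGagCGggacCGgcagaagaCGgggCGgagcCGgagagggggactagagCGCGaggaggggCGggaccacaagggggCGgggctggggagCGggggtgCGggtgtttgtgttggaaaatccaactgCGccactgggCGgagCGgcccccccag
KDM7A promoter: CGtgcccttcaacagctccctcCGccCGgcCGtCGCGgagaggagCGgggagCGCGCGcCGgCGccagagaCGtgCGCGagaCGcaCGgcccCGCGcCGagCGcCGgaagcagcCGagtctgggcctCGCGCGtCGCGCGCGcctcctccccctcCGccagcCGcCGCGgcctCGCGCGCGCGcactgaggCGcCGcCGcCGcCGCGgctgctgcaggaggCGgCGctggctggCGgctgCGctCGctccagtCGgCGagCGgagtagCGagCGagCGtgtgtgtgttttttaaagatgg
DNMT3B promoter: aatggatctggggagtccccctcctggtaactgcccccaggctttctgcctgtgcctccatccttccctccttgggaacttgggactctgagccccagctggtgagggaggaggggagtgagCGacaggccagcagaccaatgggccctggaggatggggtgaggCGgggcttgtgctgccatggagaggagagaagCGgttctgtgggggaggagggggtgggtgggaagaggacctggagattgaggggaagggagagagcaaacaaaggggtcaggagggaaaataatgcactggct

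The KDM6B stretch held 24 CpG, the KDM7A stretch 56 and the DNMT3B stretch 3. The DNMT3B stretch, the only entry matched to this gene, lies downstream of the gene start in the deposited table. Its 3 CpG therefore describe that internal start and need not describe the promoter at the gene start. The second KDM6B entry, chr17:7839667-7839966, which spans the gene start of the deposited table, held 2 CpG, so the CpG content of this gene's promoter depends on which start is taken. Over all 34961 RefSeq promoters of this length the median was 14 CpG, and over the 114 entries matched to 73 of the 83 enzymes it was 28. The other 10 enzymes had no matching entry. GC content had a median of 67.3% in the enzymes' entries and 58.7% in all. The entries of higher enzymes had a median of 32 CpG and those of lower enzymes 29. Methylation of these bases was not measured.

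**Figure D2:**
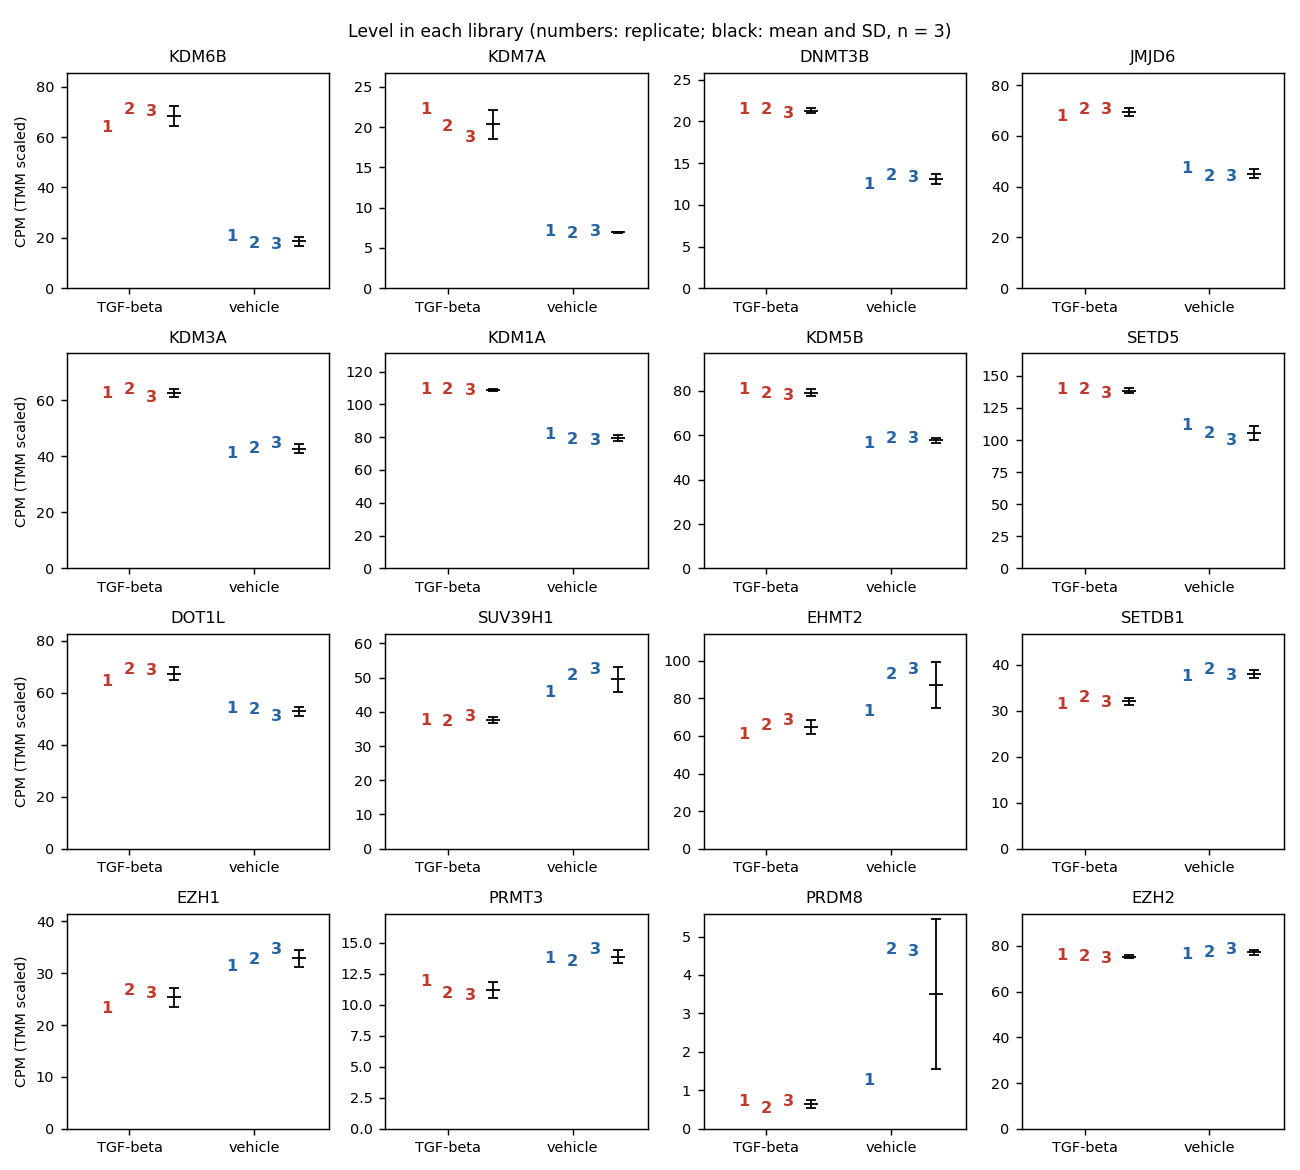
CPM in each library (y axis, from 0, TMM scaled) for 16 enzymes, with TGF-beta libraries at the left and vehicle libraries at the right of each panel. Digits are replicate numbers and black marks give the mean and SD of 3 libraries. In KDM6B and KDM7A the groups are far apart, in EZH2 they nearly meet, and in EHMT2 and PRDM8 vehicle replicate 1 lies nearer to the TGF-beta libraries than replicates 2 and 3 do.

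Among the writers of DNA methylation, only DNMT3B was called. DNMT3B (ENSG00000088305, hg38 chr20:32762385-32809356), which methylates new sites, had 21.5, 21.4 and 21.0 CPM with TGF-beta and 12.5, 13.5 and 13.3 CPM with vehicle. The 3 TGF-beta libraries lay within 1 CPM of each other and well above the vehicle libraries, with a log2 fold change of 0.70 (SE 0.06, adjusted p = 8.19e-06 by edgeR). With library totals alone its change was 0.57, just below 1.5-fold, and still called. DNMT3A, the other de novo enzyme, had 35.96, 37.1 and 39.7 CPM with TGF-beta and 34.1, 35.96 and 35.4 CPM with vehicle. Its groups touched without crossing, and it was not called (log2 fold change 0.10, SE 0.05, adjusted p = 0.176 by edgeR). DNMT1, which copies methylation after replication, had 300.1, 310.0 and 309 CPM with TGF-beta and 312, 335 and 332 CPM with vehicle. Its TGF-beta libraries were all below its vehicle libraries by a small margin, and the fit of all 6 libraries did not call it (log2 fold change -0.09, SE 0.04, adjusted p = 0.118 by edgeR). DNMT1 was called lower without vehicle replicate 1, with library totals alone and on RPKM. DNMT3L, a cofactor without catalytic activity, had too few reads to be tested.

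None of the 3 TET genes was called. TET1 had 7.19, 7.66 and 6.45 CPM with TGF-beta and 7.20, 6.14 and 5.01 CPM with vehicle. TET2 had 24.0, 25.5 and 23.7 CPM with TGF-beta and 26.5, 25.9 and 25.2 CPM with vehicle. TET3 had 30.8, 27.8 and 29.4 CPM with TGF-beta and 25.4, 28.6 and 27.4 CPM with vehicle. All 3 pairs of groups overlapped, and the log2 fold changes were 0.22 (SE 0.13), -0.08 (SE 0.05) and 0.11 (SE 0.06). TET1 was called higher without vehicle replicate 1, at a log2 fold change of 0.35, and TET2 was called lower with library totals alone.

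The class median of the 6 H3K9 methyltransferases, all tested, was -0.24. Of them 4 fell, EHMT1 rose and SUV39H2 was not called, where the background was 20.4% lower and 19.7% higher. Only 2 were lower without TGF-beta replicate 2, and also without vehicle replicate 2. SUV39H1, which writes the H3K9 mark of pericentric heterochromatin, had 37.4, 37.1 and 38.7 CPM in the TGF-beta libraries and 45.5, 50.6 and 52.4 CPM in the vehicle libraries. All TGF-beta libraries were below all vehicle libraries, and the log2 fold change was -0.39 (SE 0.06, adjusted p = 0.000400 by edgeR). AF196970.3 shares 10050 bases with SUV39H1 on the other strand (10.2 CPM with TGF-beta and 12.9 CPM with vehicle). AF196970.3 was called lower as well, at a log2 fold change of -0.34, and reads in the overlap may belong to either gene. EHMT2, or G9a (ENSG00000204371, hg38 chr6:31879759-31897687), had 60.7, 65.3 and 68.3 CPM with TGF-beta and 72.8, 93.0 and 95.5 CPM with vehicle. The groups did not overlap, but vehicle replicate 1 lay closer to the TGF-beta libraries than to the other vehicle libraries. The log2 fold change was -0.43 (SE 0.11, adjusted p = 0.0175 by edgeR), and -0.54 without vehicle replicate 1. The call was lost without TGF-beta replicate 1 (adjusted p = 0.0672), without TGF-beta replicate 2 (0.0515) and without vehicle replicate 2 (0.0547), all by edgeR. The 6 copies of EHMT2 on alternate sequences of the MHC region held 0 counts.

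EHMT1, or GLP, which forms a complex with G9a and was named after its values were seen, averaged 94.5 ± 2.35 CPM with TGF-beta and 85.4 ± 1.26 CPM with vehicle (SD, n = 3 each). Its rise of 0.15 on the log2 scale was not called with library totals alone (log2 fold change 0.02) or on RPKM, nor without TGF-beta replicate 2, TGF-beta replicate 3 or vehicle replicate 3. SETDB1, which writes H3K9 methylation over retroelements, had 31.5, 33.0 and 31.8 CPM with TGF-beta and 37.5, 39.0 and 37.7 CPM with vehicle. The groups were apart by several CPM, with a log2 fold change of -0.25 (SE 0.05, adjusted p = 0.00204 by edgeR). CERS2, which overlaps SETDB1 on the other strand, was far more abundant (238 CPM with TGF-beta and 274 CPM with vehicle) and fell as well (log2 fold change -0.21), and reads in the overlap may belong to either gene. SETDB2, named after its values were seen, fell by 0.23 on the log2 scale and lost its call in DESeq2 and without TGF-beta replicate 2, TGF-beta replicate 3 or vehicle replicate 2.

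A further 3 promoters are shown for the motifs found in them. The 7 motifs searched on both strands were GTCTAGAC and CAGACA, which SMAD proteins bind, TTTCCCGC, TTTGGCGC and TTTCGCGC of the E2F type, TGACTCA of AP-1, and the E-box CACGTG. Capitals mark the match. EHMT2 is chr6:31897649-31897948 on the minus strand, with CACGTG starting 30 bases before the start. SETDB1 is chr1:150926013-150926312 on the plus strand, with CACGTG starting 48 bases before the start. Another SETDB1 entry, chr1:150926113-150926412, has CACGTG starting 148 bases before its start. KDM3A is chr2:86441211-86441510 on the plus strand, with TGACTCA starting 40 bases before the start. Another KDM3A entry, chr2:86441121-86441420, holds no TGACTCA, so motif and distance depend on which start is taken.
EHMT2 promoter: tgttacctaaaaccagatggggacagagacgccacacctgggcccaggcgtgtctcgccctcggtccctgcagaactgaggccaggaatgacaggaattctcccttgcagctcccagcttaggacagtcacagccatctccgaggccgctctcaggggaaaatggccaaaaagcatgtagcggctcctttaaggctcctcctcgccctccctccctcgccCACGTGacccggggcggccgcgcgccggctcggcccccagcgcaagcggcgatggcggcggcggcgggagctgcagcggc
SETDB1 promoter: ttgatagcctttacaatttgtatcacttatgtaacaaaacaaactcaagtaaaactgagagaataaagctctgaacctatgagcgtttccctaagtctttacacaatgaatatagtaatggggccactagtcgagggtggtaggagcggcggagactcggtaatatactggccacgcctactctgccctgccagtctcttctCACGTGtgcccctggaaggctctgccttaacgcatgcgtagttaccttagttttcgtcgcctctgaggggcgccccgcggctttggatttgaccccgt
KDM3A promoter: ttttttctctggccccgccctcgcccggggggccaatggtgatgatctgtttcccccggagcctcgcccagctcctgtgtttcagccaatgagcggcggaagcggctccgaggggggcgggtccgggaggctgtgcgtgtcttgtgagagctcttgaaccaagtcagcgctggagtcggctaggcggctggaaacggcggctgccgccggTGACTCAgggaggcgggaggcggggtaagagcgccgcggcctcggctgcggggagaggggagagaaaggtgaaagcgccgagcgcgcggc

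CACGTG was found in 16 of the 114 entries of these enzymes (14.04%) and in 7.27% of all promoters of this length. Entries of EHMT2, SETDB1, NSD1, PRMT3 and KDM4C among the lower enzymes, of KDM4B among the higher ones, and of 7 enzymes not called held it. TGACTCA was found in 5 entries (4.39%) and in 4.92% of all. CAGACA was found in 12 entries (10.5%) and in 16.9% of all, and GTCTAGAC in 0 entries and in 0.197% of all. Any of the E2F motifs was found in 7 entries (6.14%) and in 2.75% of all. These were entries of KDM1B and PRMT7 among the lower enzymes, and of EZH2, SUZ12, DNMT1, PRDM7 and WHSC1 among those not called. EZH2 and PRMT7 also had an entry without such a motif. Several genes have more than 1 entry, whose bases can overlap, and GC content differs between these promoters and all others, so the shares are a description. No motif match was tested for binding.

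Polycomb repressive complex 2, the writer of H3K27 methylation, changed in 1 of its 4 core genes. EZH2, its main catalytic subunit in dividing cells, had 75.8, 75.2 and 74.5 CPM with TGF-beta and 76.1, 77.0 and 78.4 CPM with vehicle. SUZ12, a scaffold subunit, had 137, 129 and 128 CPM with TGF-beta and 145, 126 and 125 CPM with vehicle. The EZH2 groups lay side by side and the SUZ12 groups overlapped, and neither was called (log2 fold changes -0.04 and -0.01, SE 0.04 and 0.06). Without vehicle replicate 1 SUZ12 was at 0.07 and was not called either. EZH2 was called lower with library totals alone and on RPKM. EZH1, the alternative catalytic subunit, had 23.3, 26.7 and 26.0 CPM with TGF-beta and 31.3, 32.7 and 34.6 CPM with vehicle. Its groups did not overlap, and it fell by 0.37 on the log2 scale (SE 0.07, adjusted p = 0.00117 by edgeR). EED, which binds the methylated tail and was named after its values were seen, was at 33.0 ± 1.65 CPM with TGF-beta and 29.5 ± 2.23 CPM with vehicle and was not called (adjusted p = 0.0742 by edgeR), except with the replicate block and without vehicle replicate 1.

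Of 9 tested H3K4 methyltransferases, 1 rose and 2 fell, all 3 by small amounts, and with library totals alone 5 were lower and 0 higher. KMT2A, or MLL, had 99.7, 97.0 and 89.4 CPM with TGF-beta and 98.4, 117 and 95.1 CPM with vehicle. KMT2D, which methylates enhancers, had 147, 148 and 146 CPM with TGF-beta and 151, 176 and 149 CPM with vehicle. KMT2A groups overlapped, KMT2D groups lay apart by a small margin, and neither was called (adjusted p = 0.279 and 0.185 by edgeR). KMT2D was called lower without vehicle replicate 1 and both were with library totals alone. SETD7, which also methylates many proteins other than histones, had 110.0, 107 and 104 CPM with TGF-beta and 109, 107 and 104 CPM with vehicle. These values nearly coincide, at a log2 fold change of 0.01 (SE 0.04), and with library totals alone the same gene was called lower at -0.12. SMYD3 had 18.8, 16.9 and 18.4 CPM with TGF-beta and 18.7, 22.5 and 21.9 CPM with vehicle. It was called lower (log2 fold change -0.23, SE 0.08, adjusted p = 0.0423 by edgeR) although the groups overlapped at vehicle replicate 1, and its change was -0.30 without that library. SMYD3 lost its call when any other library was left out, in DESeq2 and with the replicate block. SETD1B (log2 fold change 0.21) and KMT2E (-0.16), a SET protein without known catalytic activity, were named after their values were seen. SETD1B lost its call with library totals alone, on RPKM and without TGF-beta replicate 2, TGF-beta replicate 3, vehicle replicate 2 or vehicle replicate 3, and KMT2E lost it without any 1 of the TGF-beta libraries or without vehicle replicate 2.

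For H3K36 and H3K79, 1 of 7 tested enzymes rose and 1 fell, and without vehicle replicate 1 the counts were 3 and 2. DOT1L, the H3K79 methyltransferase, which has no SET domain, had 64.4, 69.0 and 68.5 CPM with TGF-beta and 54.0, 53.7 and 51.0 CPM with vehicle. All TGF-beta libraries exceeded all vehicle libraries, with a log2 fold change of 0.35 (SE 0.05, adjusted p = 0.000233 by edgeR). On the other strand AP3D1 shares 317 bases with DOT1L (243 CPM with TGF-beta and 232 CPM with vehicle, not called). PLEKHJ1 shares 2495 bases (79.9 CPM with TGF-beta and 70.5 CPM with vehicle) and was called higher, at a log2 fold change of 0.18. AC004490.1 shares 3537 bases (5.25 CPM with TGF-beta and 3.86 CPM with vehicle) and was called higher at 0.44. Reads in these overlaps may belong to either gene. NSD1, which writes H3K36 dimethylation and was named after its values were seen, averaged 116 ± 3.16 CPM with TGF-beta and 139 ± 7.41 CPM with vehicle, a log2 fold change of -0.27 (SE 0.05). Its relatives WHSC1 (NSD2) and WHSC1L1 (NSD3) were at log2 fold changes of -0.09 and 0.08 and were not called by edgeR with TMM scaling and all 6 libraries. WHSC1 was called lower with library totals alone, on RPKM and without vehicle replicate 1, and WHSC1L1 was called higher without vehicle replicate 1.

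The 3 H4K20 methyltransferases were not called. SETD8 (KMT5A), which writes H4K20 monomethylation in the cell cycle, had 53.6, 51.6 and 54.3 CPM with TGF-beta and 40.5, 53.9 and 55.2 CPM with vehicle. The groups overlapped, and vehicle replicate 1 alone lay low. The SETD8 log2 fold change was 0.09 with all 6 libraries and -0.04 without that library, where it was not called either. Among 5 other SETD proteins, SETD5, whose own catalytic activity is disputed, had 139, 139.6 and 136 CPM with TGF-beta and 111, 105 and 99.98 CPM with vehicle. Its groups were clearly apart, at a log2 fold change of 0.39 (SE 0.05, adjusted p = 9.33e-05 by edgeR). SETD3, which methylates a histidine of actin, was named after its values were seen and averaged 86.5 ± 1.16 CPM with TGF-beta and 70.6 ± 4.17 CPM with vehicle, a log2 fold change of 0.29 (SE 0.05).

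None of the 7 tested arginine methyltransferases rose, and 4 fell, where the background was 19.7% higher and 20.4% lower. PRMT1, the main asymmetric enzyme, had 143, 143 and 153 CPM with TGF-beta and 122, 148 and 154 CPM with vehicle. Its groups overlapped, with vehicle replicate 1 lowest, and it was not called (adjusted p = 0.672 by edgeR). The PRMT1 log2 fold change was 0.05 with all 6 libraries and -0.04 without vehicle replicate 1, where it was not called either. PRMT5, the main symmetric enzyme, had 105, 105 and 109 CPM with TGF-beta and 113, 116 and 116 CPM with vehicle. The groups did not overlap and the change was small (log2 fold change -0.11, SE 0.04, adjusted p = 0.0481 by edgeR). PRMT5 lost this call without any 1 library other than vehicle replicate 1, with RLE size factors, in DESeq2 and with no filter, and reads of PRMT5-AS1 overlap its own. PRMT3, a cytosolic enzyme that methylates a ribosomal protein, had 11.9, 10.9 and 10.7 CPM with TGF-beta and 13.7, 13.5 and 14.5 CPM with vehicle. Its groups did not overlap, at a log2 fold change of -0.31 (SE 0.07, adjusted p = 0.00492 by edgeR). PRMT7 and PRMT6, named after their values were seen, fell by 0.31 and 0.24 on the log2 scale.

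The PRDM family, zinc-finger proteins with a SET-like domain of which few methylate histones, was the least expressed. In this family 5 of 14 genes were not tested, and of the 9 tested 1 rose and 3 fell (5 with library totals alone). PRDM8 (ENSG00000152784, hg38 chr4:80183879-80204329), a transcriptional repressor known from the nervous system, had 0.700, 0.529 and 0.697 CPM with TGF-beta and 1.26, 4.66 and 4.61 CPM with vehicle. Vehicle replicate 1 was well below the other 2 vehicle libraries and still above the TGF-beta libraries. The log2 fold change was -2.48 (SE 0.61, adjusted p = 0.0284 by edgeR) and -2.86 without vehicle replicate 1. PRDM8 lost its call with no filter and without any 1 of the other 5 libraries, with adjusted p up to 0.0989 by edgeR. PRDM11, named after its values were seen, fell by 0.44 on the log2 scale at a mean of 4.79 ± 0.265 CPM with TGF-beta and 6.49 ± 0.563 CPM with vehicle. PRDM1, or BLIMP1, also named after its values were seen, rose by 0.88 at only 0.594 ± 0.0778 CPM with TGF-beta and 0.324 ± 0.0654 CPM with vehicle, and lost its call without TGF-beta replicate 1, TGF-beta replicate 2 or vehicle replicate 2, with a filter of 1 CPM and in DESeq2.

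The 9 enzymes that were not tested were PRDM6, PRDM9, PRDM12, PRDM13, PRDM14, PRDM16, PRMT8, KDM4E and DNMT3L. Their counts summed over all 6 libraries ran from 0 to 60, and PRDM9, PRDM13 and PRDM14 had 0. Enzymes known from germ cells, such as PRDM9 and DNMT3L, were thus not detectable or barely detectable at this depth.

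Levels were compared between genes on RPKM, in which the authors divided reads by gene length and by a library total. DNMT1 had the highest level, 12.9 ± 0.215 RPKM with TGF-beta and 14.6 ± 0.542 RPKM with vehicle, followed by PRMT5 (12.7 ± 0.238 with TGF-beta and 14.5 ± 0.187 with vehicle) and PRMT1 (12.6 ± 0.415 with TGF-beta and 12.9 ± 1.53 with vehicle). These 3 did not differ from each other beyond their spread in the TGF-beta libraries. A mean of at least 1 RPKM was reached by 56 tested enzymes with TGF-beta and by 59 with vehicle, and the tested enzymes' median was 2.35 RPKM with TGF-beta and 2.10 RPKM with vehicle. KDM6B was at 3.88 ± 0.226 RPKM with TGF-beta and 1.12 ± 0.101 RPKM with vehicle, so it lay above KDM6A (2.25 ± 0.0947 RPKM) in treated cells and below it (2.35 ± 0.0919 RPKM) in vehicle cells. KDM7A remained under 1 RPKM in both groups, at 0.890 ± 0.0815 with TGF-beta and 0.323 ± 0.00554 with vehicle. DNMT3B reached 1.90 ± 0.0342 RPKM with TGF-beta and 1.24 ± 0.0507 RPKM with vehicle, where DNMT3A had 1.29 ± 0.0603 and 1.28 ± 0.0326 RPKM. In vehicle cells the de novo enzymes therefore did not differ beyond their spread, and in TGF-beta cells DNMT3B was the higher. Together the enzymes took 0.443 to 0.451% of counts with TGF-beta and 0.468 to 0.482% with vehicle. These are shares of library totals without TMM, whose factors were 0.951 to 0.961 with TGF-beta and 1.04 to 1.05 with vehicle. With TMM the enzymes' median log2 fold change was 0.02, so the lower share is not read as a fall of the set.

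**Figure D3:**
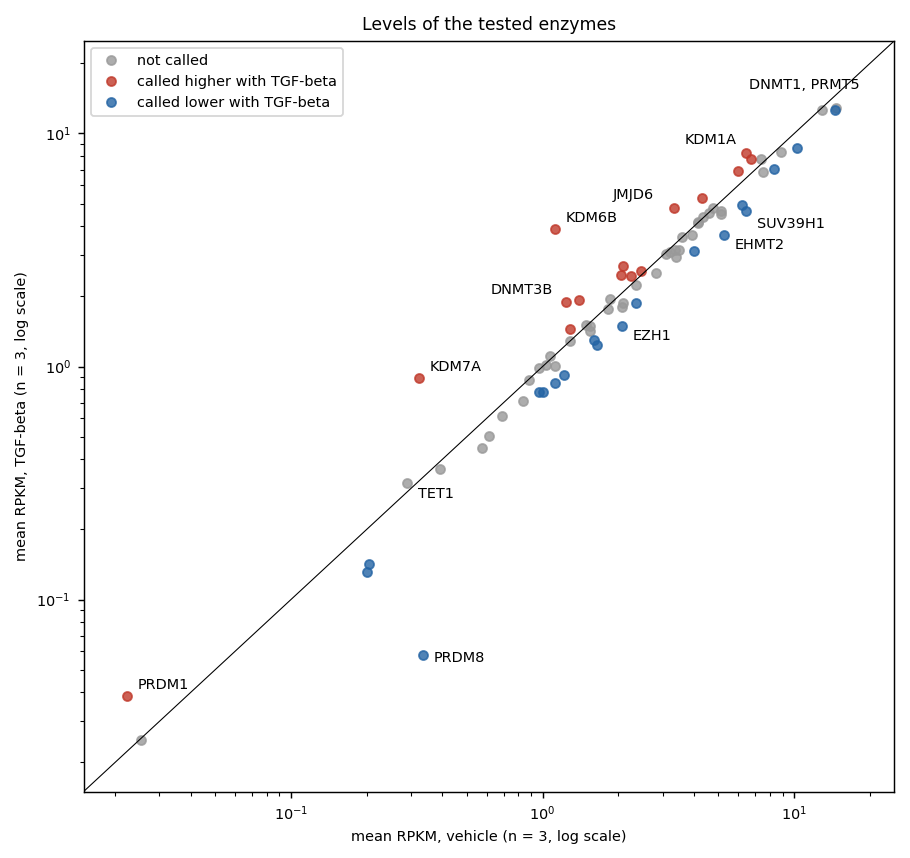
Mean RPKM of each tested enzyme with TGF-beta (y axis) against vehicle (x axis), both on log scales, n = 3 libraries each, with the line of equality. KDM6B and KDM7A stand above the line, PRDM8 below it, and DNMT1 is at the upper end near 13 to 15 RPKM.

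Related enzymes were compared by the ratio of their counts within each library, which no scaling of libraries can change. The 25 pairs from 17 families were set with results known, and the member with the larger fold change was put on top, so all differences are positive by that choice. The ratios of the TGF-beta and vehicle libraries did not overlap in 16 pairs, from 12 families, and overlapped in 9. No such share was computed for other gene pairs, and for single genes the background was 52.3%. An exact two-sided permutation test of 3 against 3 libraries cannot give p below 0.1, which these 16 pairs had, and the lowest adjusted p over the 25 pairs was 0.156. KDM6B reads per KDM6A read were 1.605, 1.79 and 1.88 with TGF-beta and 0.546, 0.441 and 0.475 with vehicle. KDM6B thus had more reads than KDM6A in every TGF-beta library and fewer in every vehicle library. DNMT3B reads per DNMT3A read were 0.597, 0.578 and 0.528 with TGF-beta and 0.366, 0.377 and 0.376 with vehicle. EHMT1 reads per EHMT2 read were 1.51, 1.47 and 1.40 with TGF-beta and 1.17, 0.933 and 0.883 with vehicle. All 3 ratios were higher in each TGF-beta library than in any vehicle library, vehicle replicate 1 being the nearest to the TGF-beta libraries for EHMT1 and EHMT2. In 4 pairs 1 enzyme was called higher and the other lower: KDM1A and KDM1B, KDM3A and KDM3B, EHMT1 and EHMT2, and KDM4B and KDM4C. Unlike the ratios, these calls depend on the fit. EHMT1 and KDM4B were not called with library totals alone or on RPKM. KDM3B lost its call in DESeq2, and EHMT2 in some fits with 1 library left out. Of these pairs only KDM1A and KDM1B kept both calls under all 14 alternatives. KDM1A reads per KDM1B read averaged 7.89 ± 0.282 with TGF-beta and 4.602 ± 0.314 with vehicle (SD, n = 3 each).

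**Figure D4:**
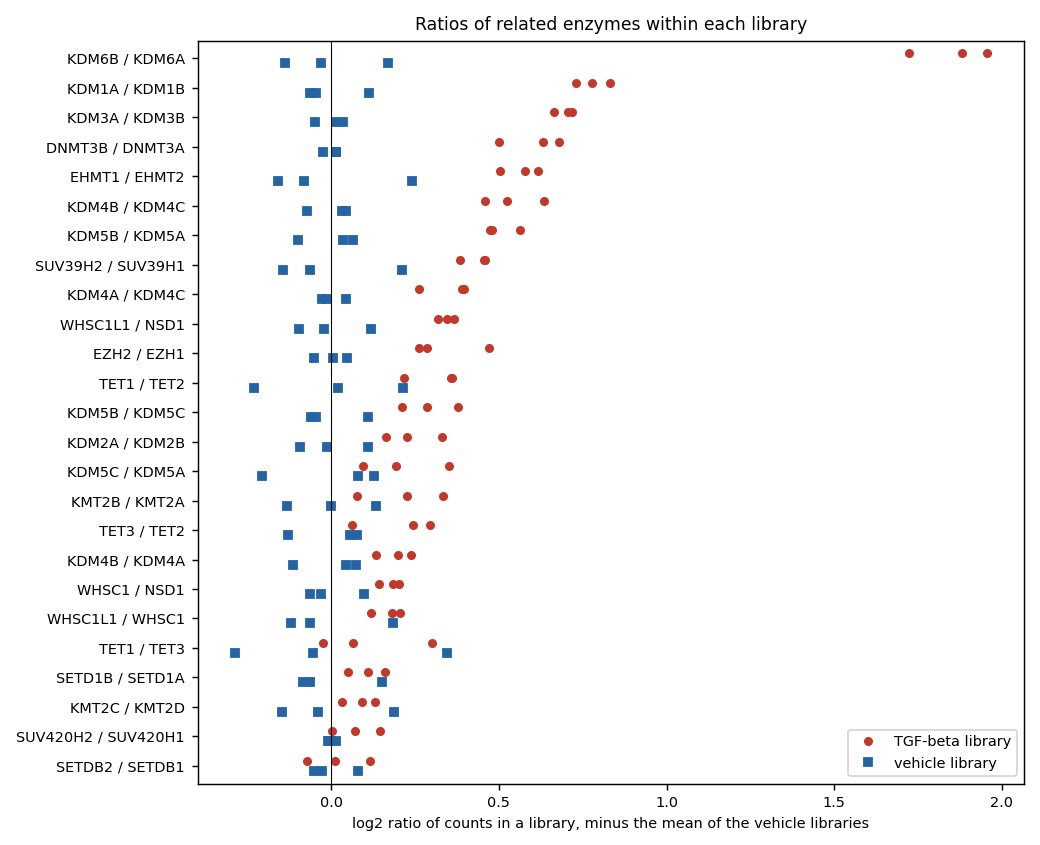
Log2 ratio of the counts of 2 related enzymes in each library, minus the mean of the vehicle libraries (x axis), for 25 pairs down the page. Circles are TGF-beta libraries and squares vehicle libraries. KDM6B over KDM6A is shifted most, by 1.85, and SETDB2 over SETDB1 least, by 0.02.

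The genes that work with these enzymes were taken as 5 lists of 70 genes, of which 69 were tested, 19 rose and 17 fell, where the background was 19.7% higher and 20.4% lower. With library totals alone 10 were higher and 29 lower. Of 13 readers and partners of DNA methylation, 8 were higher and 1 lower, with a median of 0.24. On RPKM 5 of them were higher and 2 lower, and with library totals alone 3 were lower. GADD45A, a stress-response gene linked to DNA demethylation, averaged 38.3 ± 0.623 CPM with TGF-beta and 13.3 ± 0.762 CPM with vehicle, a log2 fold change of 1.52 (SE 0.06, adjusted p = 2.20e-08 by edgeR). GADD45B, TDG, MBD4 and UHRF1 were named after their values were seen. GADD45B had 232, 228 and 236 CPM with TGF-beta and 113, 67.8 and 67.4 CPM with vehicle, vehicle replicate 1 being the nearest to the TGF-beta libraries. TDG and MBD4, glycosylases that excise the products of oxidised or deaminated methylcytosine, rose by 0.50 and 0.39 on the log2 scale, and UHRF1, which guides DNMT1 to new DNA, rose by 0.30. ZBTB38, a reader of methylated DNA, fell by 0.47.

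Of 17 tested genes of methyl donor and 2-oxoglutarate metabolism, 8 were lower, 1 was higher and 8 were not called, with a median of -0.14. The lower genes numbered 4 when TGF-beta replicate 1 was left out and 5 when TGF-beta replicate 2 was, and without vehicle replicate 1 the higher genes were 3. NNMT, which uses S-adenosylmethionine to methylate nicotinamide, averaged 144 ± 5.92 CPM with TGF-beta and 90.7 ± 16.0 CPM with vehicle, a log2 fold change of 0.67 (SE 0.12, adjusted p = 0.00650 by edgeR). Among 15 partners of demethylases and of H3K9 methylation, 6 rose and 3 fell, but with library totals alone 2 were higher and 6 lower. HR, a histone demethylase known from hair growth, averaged 63.3 ± 2.79 CPM with TGF-beta and 21.8 ± 3.52 CPM with vehicle (log2 fold change 1.54, SE 0.11), and CBX5, the heterochromatin protein that binds methylated H3K9, fell by 0.34 on the log2 scale. Of 10 accessory subunits of Polycomb repressive complex 2, JARID2 rose by 0.29 and 3 fell, PHF19 most, at 191 ± 10.0 CPM with TGF-beta and 290.2 ± 11.6 CPM with vehicle (log2 fold change -0.60, SE 0.05). Of 14 subunits of the H3K4 methyltransferase complexes, 3 rose and 2 fell, with PAXIP1 at 0.20 and ASH2L at -0.36, while with library totals alone 0 were higher and 5 lower. In a list of 23 proliferation genes 1 rose and 14 fell, with a median of -0.20, and E2F2 and CCNE1 were at -1.07 and 0.45. The part of proliferation in the falls of SUV39H1, EHMT2 or PHF19 was not tested.

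**Figure D5:**
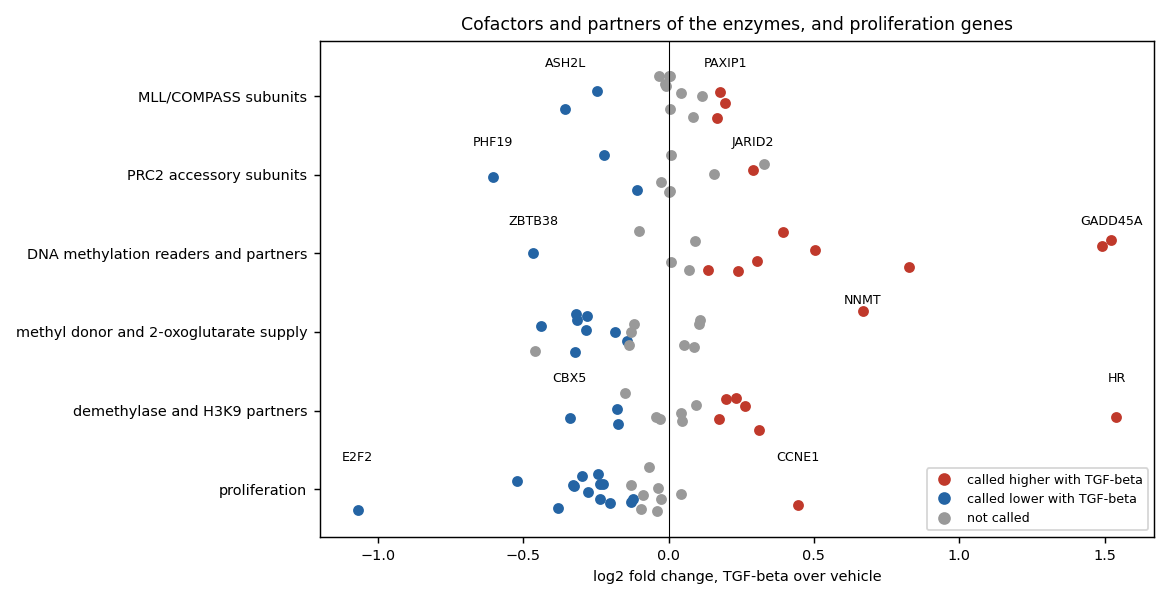
Log2 fold change of TGF-beta over vehicle (x axis) for genes of the 5 partner lists and of the proliferation list, 1 point a gene, coloured by call, with small vertical scatter for legibility. GADD45A and HR lie near 1.5, and E2F2 lies near -1.07.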

How the data were processed

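RNA sequencing of 6 H69 libraries was analysed from 1 deposited table. Per the submitters' processing notes, bcl2fastq, STAR 2.6.1 and featureCounts of Subread were used on hg38. Strand setting, multi-mapping and annotation release are not given in the sources used here. Per the file headers, the authors deposited whole-number counts per gene and RPKM. From the values, the counts in the table are 41.9 to 43.3% of the library total behind the RPKM. Counts were fitted in R 4.3.3 with edgeR 4.0.16 (TMM, filterByExpr with a minimum count of 10, robust quasi-likelihood test, Benjamini-Hochberg over 20992 genes). The common biological coefficient of variation was 7.88%. The SE of a log2 fold change is that fold change over the square root of F. CPM uses TMM scaling. Alternatives were RLE size factors, library totals, no filter, 1 CPM in 3 samples, DESeq2 1.42.0, limma 3.58.1 on the deposited RPKM as log2(RPKM + 1) and log2(RPKM + 0.1) (genes averaging 0.5 RPKM or more), a block for the replicate number, and each library left out. Library pairs of a group differed beyond sampling noise (lowest chi-square per degree of freedom 2.47), so none was counted as a duplicate. The steps were tested on simulated data.

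Enzymes given per library were those called with at least 1.5-fold change and a mean of at least 1 CPM, the largest called change of each class, and a fixed set that includes EZH2, DNMT1 and the TET genes. For each partner list they were the largest rise and fall. Other genes named were chosen after their values were seen. Some results are not reported here. The enzymes, lists and motifs were chosen with earlier results of these data known. Promoters are from RefSeq, GRCh38.p14, matched by symbol. Marker genes served as a check of the cells.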

Additional observations from a re-analysis of the deposited data

How the results depend on the processing

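Of the 33 enzyme calls, 20 were made in the same direction under all 14 alternatives: 11 higher, among them KDM6B, KDM7A, DNMT3B, JMJD6, KDM1A and DOT1L, and 9 lower, among them SUV39H1, SETDB1 and EZH1. PRDM11 was called in all 12 that tested it. With library totals alone 2698 genes were higher and 7282 lower, and of the enzymes 12 were higher and 33 lower, 3 at least 1.5-fold higher and 2 at least 1.5-fold lower, and of the partner genes 10 were higher and 29 lower. SETD7 and PRDM4, both close to no change in the fit with TMM scaling, changed sign and were called lower there. SETD7 was at -0.12 (adjusted p = 0.0433 by edgeR). With limma on log2(RPKM + 1) and log2(RPKM + 0.1), 2406 and 2402 genes were higher, 1 and 2 enzymes were at least 1.5-fold higher, 0 were at least 1.5-fold lower, and 10 partner genes were higher under each. With no filter, 0 enzymes were at least 1.5-fold lower. With 1 library left out, 12 to 20 enzymes were higher and 11 to 23 lower, 4 to 5 were at least 1.5-fold higher and 0 to 1 at least 1.5-fold lower, and of the partner genes 15 to 24 were higher and 11 to 19 lower. The cause of the other differences between settings was not tested. Same-numbered libraries deviated together with correlations of 0.105, 0.0528 and 0.0735, so the numbers were not taken to pair them; with the replicate block 17 enzymes were higher and 17 lower. The 9 untested enzymes had too few reads for a statement at this depth.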
